A study of Solanum lycopersicum and Solanum pimpinellifolium with 9 samples.

Results

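The 10 tomato genes described here encode ethylene response factors (ERF) and were followed through 9 cDNA libraries, 7 from organs of the cultivated tomato and 2 from a wild relative. They were taken by their identifiers from a deposited table of 34727 gene IDs. They belong to subclass A (ERF.A2, Solyc03g093610, and ERF.A3, also called Pti4, Solyc05g052050), subclass B (ERF.B1, Solyc05g052040, and ERF.B3, Solyc05g052030), subclass E (ERF.E1, Solyc09g075420, ERF.E2, Solyc06g063070, ERF.E3, Solyc03g123500, and ERF.E4, Solyc01g065980) and subclass F (ERF.F4, Solyc07g053740, and ERF.F5, Solyc10g009110). The table carries no gene names, and the names came with the list that defined the group. RefSeq's gene table of the tomato assembly SLM_r2.1 held all 10 under these ERF names, each on the chromosome that the first digits of its identifier give. The names there were not all unambiguous. The entry matched to ERF.E2 also carried the synonym Sl-ERF-A-3, close to the Sl-ERF-A3 of PTI4, and that matched to ERF.E3 also carried Sl-ERF-C-4. Among the older names there were PTI4 for ERF.A3, ERF4 for ERF.B3, ERF2 for ERF.E1, JERF1 for ERF.E2, JERF3 for ERF.E3, ERF6 for ERF.E4 and ERF3 for ERF.F5.

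ERF proteins share a DNA-binding domain of the AP2/ERF type and act near the end of the ethylene pathway. In that pathway the hormone is sensed by receptors, the signal passes to transcription factors of the EIN3/EIL family, and these switch on ERF genes, whose products bind GCC-box elements in the promoters of further genes. Tomato is a climacteric fruit, in which a burst of ethylene accompanies ripening, and ERF genes also take part in responses to pathogens, wounding and jasmonate. Members of subclass F carry a repression motif of the EAR type and are known as transcriptional repressors. Subclass E corresponds to the ERF group whose members in Arabidopsis are degraded according to oxygen supply.

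Each group was a single library, so differences between groups carry no replicate error and were not tested. From Solanum lycopersicum cultivar MoneyMaker there were grown root, upper stem just under the shoot apex, fully expanded leaf of 2 to 3 weeks, flower at full anthesis without sepals, and full-size fruit sampled mature green, at breaker, when colour first turns, and red ripe. From accession LA0722 of S. pimpinellifolium there were fully expanded leaf of 2 to 4 weeks and ripe red fruit. All plants grew in greenhouse pots with days of 16 h light and nights of 8 h, with no treatment named, and the labels do not say how many plants went into a library. One MoneyMaker column, headed as a berry plus the number 10, was assigned to ripe fruit because no other fruit column remained for that sample. The labelled tissues were not checked against marker genes, because the IDs of the table were not paired with names of other genes here.

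Levels are RPKM, reads scaled to the length of the gene model and to the reads of the library, as the authors deposited them. The values implied about 380000 reads in the deepest library, MoneyMaker leaf, and about 211000 in the shallowest, LA0722 ripe fruit, so that a single read on 1 kb of gene was worth 2.63 RPKM in the former and 4.73 RPKM in the latter. Whole reads were recovered from the steps between values, and every interval below is an exact 95% interval on those reads, which covers counting error only. A gene was compared between libraries when it reached 25 RPKM in at least 1 of them, and it was counted as higher or lower when its log2(RPKM + 5) differed by at least 2 units, which is 4-fold before the pseudocount of 5. A second size of 1 log2 unit is given beside it. These are tissue libraries, so fewer cells expressing a gene and less RNA per cell cannot be told apart.

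In the deposited RPKM the 10 genes together were most abundant in ripe fruit, breaker fruit and root and least abundant in flower and MoneyMaker leaf. The low rank of flower depends on the scaling. Median-ratio size factors raise flower by 1.37 log2 units and lower mature green fruit by 0.52, which would put the flower sum above that of mature green fruit. Upper-quartile scaling (1.10 and -0.42) would do so too. Their summed level was 5005 RPKM in LA0722 ripe fruit, 3938 RPKM in MoneyMaker ripe fruit, 3729 RPKM in root and 3653 RPKM in breaker fruit. It was 1676 RPKM in stem, 1666 RPKM in LA0722 leaf and 1024 RPKM in mature green fruit, against 405 RPKM in flower and a similar sum in MoneyMaker leaf, of which subclass E was 271 RPKM. As a share of all RPKM in the library this was 0.364% in LA0722 ripe fruit and 0.279% in root, but 0.0314% in MoneyMaker leaf and 0.0284% in flower. Behind the sums stood between 83 reads in flower and 1119 reads in root.

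**Figure D1:**
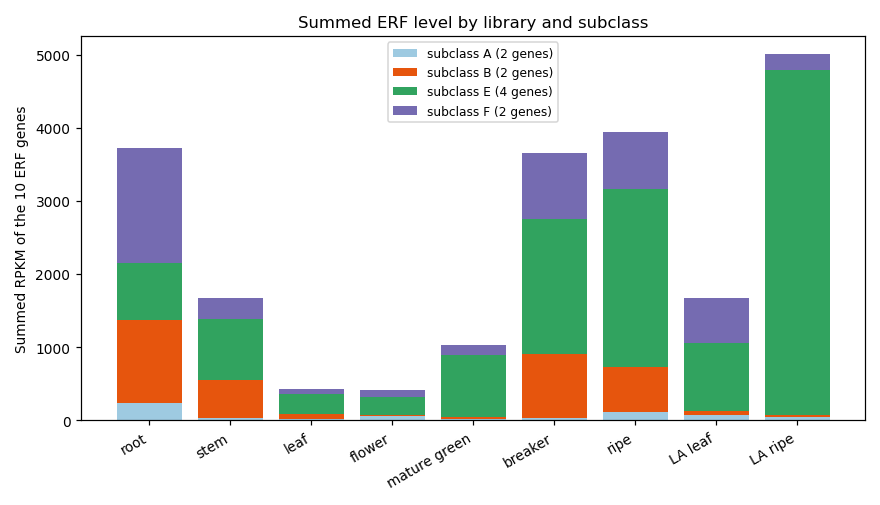
Summed RPKM of the 10 ERF genes (vertical axis) in each of the 9 libraries, stacked by subclass; LA marks the LA0722 libraries, and each bar is 1 library with no replicate. Root and MoneyMaker breaker and ripe fruit have similar heights with different subclasses, and subclass E makes up 94.4% of the LA0722 ripe fruit bar.

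The makeup of the sum differed between root and fruit. In root, subclass F held 42.4% of it and subclass B 30.5%, with subclass E at 21.1%. In mature green fruit subclass E held 82.1% and subclass B 2.5%. In breaker fruit subclass E held 50.6%, subclass F 24.6% and subclass B 24.0%. In ripe fruit of LA0722 subclass E held 94.4% of the sum, against 61.7% in ripe fruit of MoneyMaker. ERF.E4 and ERF.E2 alone made up 83.5% of the LA0722 ripe sum. The leading gene was ERF.B1 in root and stem, ERF.E3 in MoneyMaker leaf, ERF.F4 in LA0722 leaf, ERF.E4 in LA0722 ripe fruit, and ERF.E2 in flower and all 3 MoneyMaker fruit stages.

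**Figure D2:**
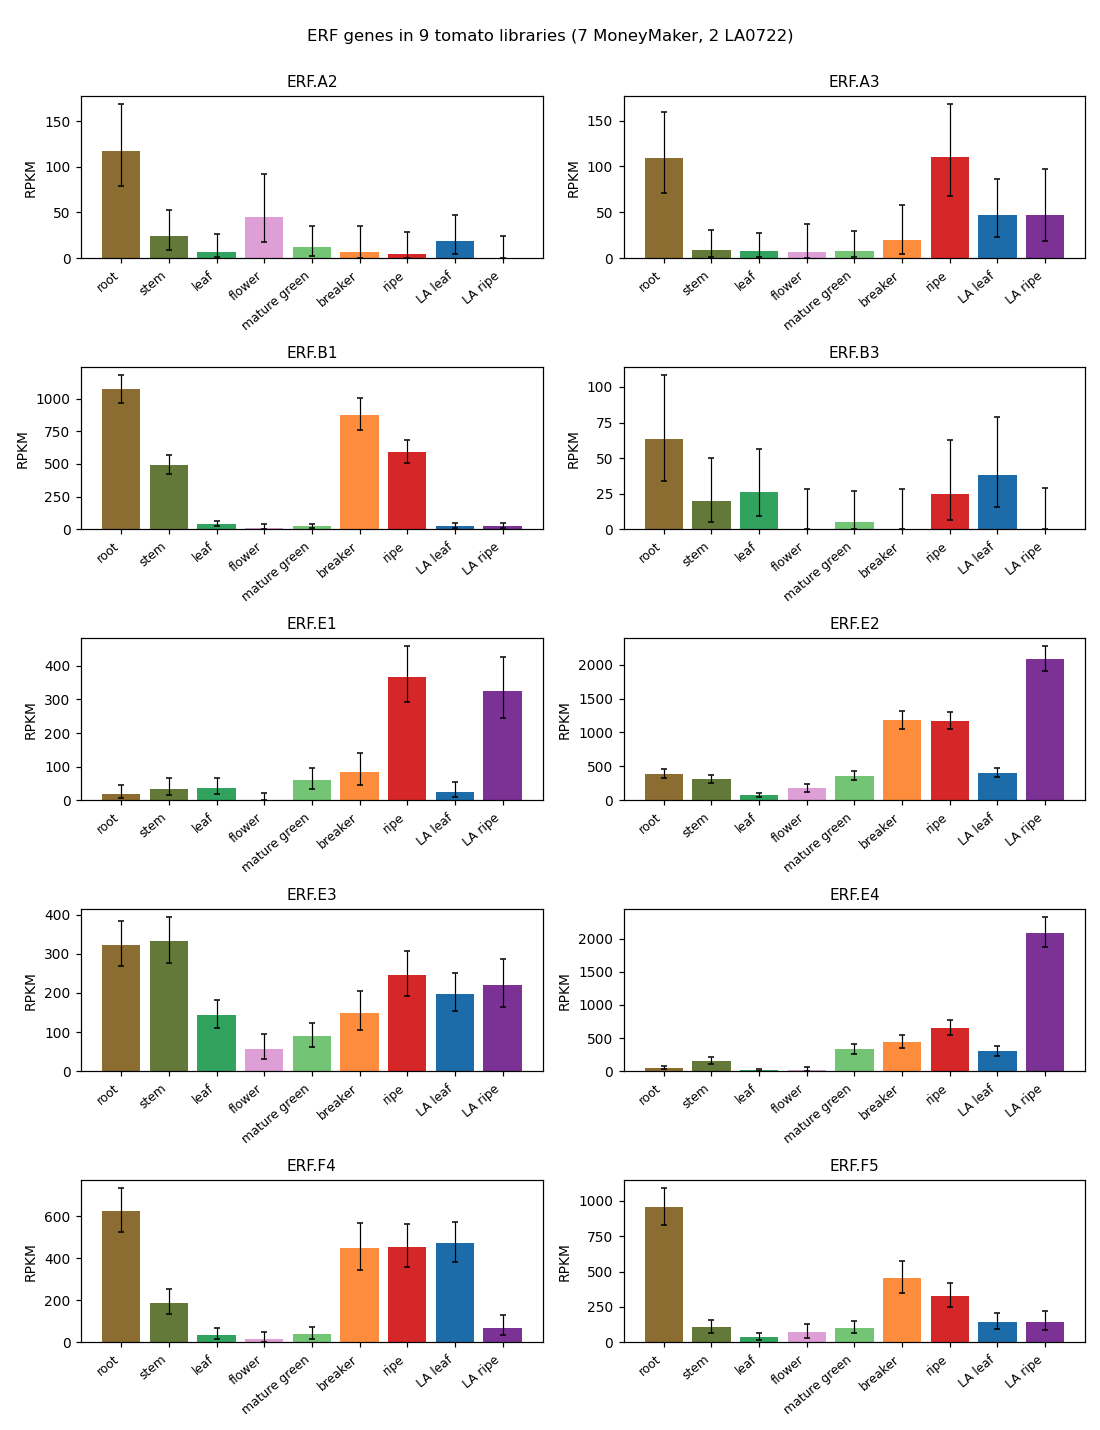
RPKM of each ERF gene (vertical axes, each with its own scale from 0) in the 9 libraries; bars are single libraries, lines are exact 95% intervals for counting error, and LA marks LA0722. ERF.B1 is high in root, stem and MoneyMaker breaker and ripe fruit and low elsewhere, while ERF.E2 and ERF.E4 reach 2086 and 2092 RPKM in LA0722 ripe fruit.

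Subclass A was scarce. ERF.A2 stood at 118 RPKM in root (29 reads), 44.9 RPKM in flower, 24.4 RPKM in stem, 18.2 RPKM in LA0722 leaf, 11.9 RPKM in mature green fruit, 7.21 RPKM in MoneyMaker leaf, 6.39 RPKM in breaker and 5.07 RPKM in ripe MoneyMaker fruit. It was listed at 0 in LA0722 ripe fruit, where 3 reads would have been worth 19.5 RPKM. Only the step from root down to flower, 2.62-fold, lay beyond counting error in this order (1.12 to 7.08), and none of the 7 further steps did.

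ERF.A3 encodes Pti4, a GCC-box-binding protein first found through its interaction with Pto, the kinase that gives resistance to bacterial speck. It stood at 110.1 RPKM in ripe MoneyMaker fruit (21 reads) and 109 RPKM in root (26 reads), which differed by less than counting error. Both LA0722 libraries were at 47.0 to 47.1 RPKM, and breaker fruit was at 19.8 RPKM (3 reads). Stem, MoneyMaker leaf, mature green fruit and flower lay between 6.64 and 8.42 RPKM, on 1 or 2 reads each. Root was 14.6-fold above MoneyMaker leaf (3.66 to 127), and in the order of levels the one step beyond counting error was that from root to LA0722 leaf.

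Subclass B held an abundant and a scarce gene. ERF.B1 stood at 1072 RPKM in root (398 reads), 878 RPKM at breaker (207 reads), 589 RPKM in MoneyMaker fruit when ripe (175 reads) and 494 RPKM in stem (183 reads). It was at 38.3 RPKM in MoneyMaker leaf (16 reads), 24.2 RPKM in LA0722 leaf (8 reads), 21.6 RPKM in LA0722 ripe fruit (5 reads), 21.0 RPKM in mature green fruit (8 reads) and 12.8 RPKM in flower (3 reads). The libraries therefore fell into 4 high and 5 low values with a 12.9-fold step between stem and MoneyMaker leaf (7.74 to 23.1). Among the 17598 genes above 0 in root it ranked 155th. Root was 1.22-fold above breaker (1.03 to 1.45), 2.17-fold above stem (1.82 to 2.60) and 51.1-fold above mature green fruit (25.7 to 119). Ripe MoneyMaker fruit and stem did not differ beyond counting error, and neither did any neighbours among the 5 low values.

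ERF.B3, whose fusion to a repression domain is known to alter ethylene responses and ripening in transgenic tomato, never exceeded 63.5 RPKM. It reached that level in root (13 reads), with 38.4 RPKM in LA0722 leaf, 26.0 RPKM in MoneyMaker leaf, 24.4 RPKM in MoneyMaker ripe fruit, 19.6 RPKM in stem and 4.76 RPKM, a single read, in mature green fruit. It was listed at 0 in flower, breaker fruit and LA0722 ripe fruit, where 3 reads would have been worth 23.1 to 23.4 RPKM. No neighbours in its order were separated by counting error.

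ERF.B3, ERF.B1 and ERF.A3 follow each other on chromosome 5, both in the row order of the table and in RefSeq. Their levels were far apart. In root ERF.B1 was at 1072 RPKM against 63.5 RPKM for ERF.B3 and 109 RPKM for ERF.A3, and in breaker fruit at 878 RPKM against 0 and 19.8 RPKM. The ID before the run, Solyc05g052020, stayed between 4.27 and 21.3 RPKM in the 9 libraries, and the ID after it, Solyc05g052060, was listed at 0 in all 9.

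Subclass E held the largest share of the sum in every library except root. Outside fruit it held 49.8% in stem, 55.4% in LA0722 leaf, 63.4% in flower and 64.5% in MoneyMaker leaf. ERF.E2, named JERF1 as a jasmonate and ethylene response factor, stood at 2086 RPKM in LA0722 ripe fruit (493 reads), 1178 RPKM at breaker (283 reads) and 1169.7 RPKM in MoneyMaker fruit when ripe (354 reads). It was at 401 RPKM in LA0722 leaf, 394 RPKM in root, 361 RPKM in mature green fruit and 313 RPKM in stem, 4 libraries whose neighbours in the order did not differ beyond counting error. Flower stood lower at 176 RPKM (42 reads) and MoneyMaker leaf lowest at 77.5 RPKM (33 reads). It reached 25 RPKM in all 9 libraries, as did ERF.E3 and ERF.F5.

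ERF.E4, published as SlERF6, is known from silenced plants as a negative regulator of carotenoid and ethylene accumulation in fruit. It had its highest level in LA0722 ripe fruit at 2092 RPKM (338 reads), where it ranked 65th of 12234 genes above 0 and ERF.E2 66th. Then came 648 RPKM in ripe (134 reads), 439 RPKM in breaker (72 reads) and 332 RPKM in mature green MoneyMaker fruit (88 reads), 299.8 RPKM in LA0722 leaf (69 reads) and 155 RPKM in stem (40 reads). Root was at 50.3 RPKM (13 reads), flower at 24.5 RPKM and MoneyMaker leaf at 13.8 RPKM, the last with 4 reads each. Mature green fruit was already 24.1-fold above leaf of the same cultivar (9.09 to 90.5).

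ERF.E1, the tomato ERF2, was highest in ripe fruit among the libraries of each species, which for LA0722 were leaf and ripe fruit only. It stood at 368 RPKM in MoneyMaker ripe fruit (78 reads) and 327 RPKM in LA0722 ripe fruit (54 reads), which did not differ beyond counting error. The other libraries followed at 83.3 RPKM in breaker fruit (14 reads), 58.9 RPKM in mature green fruit (16 reads), 36.9 RPKM in MoneyMaker leaf, 34.1 RPKM in stem, 25.5 RPKM in LA0722 leaf and 18.9 RPKM in root. It was listed at 0 in flower, where 3 reads would have been worth 17.9 RPKM. LA0722 ripe fruit was 3.92-fold above MoneyMaker breaker fruit (2.15 to 7.64), the only step in the order beyond counting error.

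ERF.E3, or JERF3, known to raise salt tolerance when expressed in tobacco, was the most even of the group. Its lowest level was 56.4 RPKM in flower (14 reads), its median 198 RPKM and its highest 332 RPKM in stem (130 reads). Root was at 324 RPKM, MoneyMaker ripe fruit at 245 RPKM, LA0722 ripe fruit at 220.2 RPKM, LA0722 leaf at 198 RPKM, breaker fruit at 148.5 RPKM, MoneyMaker leaf at 143 RPKM and mature green fruit at 89.4 RPKM. Of the 8 steps in this order 1 lay beyond counting error, from MoneyMaker leaf to mature green fruit at 1.60-fold (1.04 to 2.48).

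Both genes of the repressor subclass F had their highest level in root. ERF.F5 stood at 955 RPKM in root (216 reads), 453 RPKM at breaker (65 reads) and 326 RPKM in MoneyMaker fruit when ripe (59 reads). LA0722 leaf and ripe fruit were at 144 and 142 RPKM, stem at 106 RPKM, mature green fruit at 99.1 RPKM (23 reads), flower at 69.9 RPKM and MoneyMaker leaf at 35.4 RPKM (9 reads). Root was 2.11-fold above breaker fruit (1.59 to 2.83) and 8.98-fold above stem (5.87 to 14.3).

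ERF.F4 stood at 624 RPKM in root (143 reads), 471 RPKM in LA0722 leaf (96 reads), 453 RPKM in ripe (83 reads) and 447 RPKM in breaker MoneyMaker fruit (65 reads). Stem was at 188 RPKM (43 reads), LA0722 ripe fruit at 69.8 RPKM (10 reads), mature green fruit at 38.3 RPKM (9 reads), MoneyMaker leaf at 34.9 RPKM (9 reads) and flower at 13.8 RPKM (2 reads). LA0722 leaf and MoneyMaker ripe and breaker fruit did not differ beyond counting error. This gene was thus high in a leaf of one species and in ripe fruit of the other.

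Organs of MoneyMaker were compared with fruit represented by its highest stage. Root was the highest organ for 5 genes (ERF.A2, ERF.B1, ERF.B3, ERF.F4 and ERF.F5), fruit for 4 (ERF.A3, ERF.E1, ERF.E2 and ERF.E4) and stem for ERF.E3. Leaf and flower were the highest for 0 of the 10. This tally is for the deposited scale. Median-ratio size factors raise flower by 1.37 log2 units and lower root by 0.35. That exceeds the 1.30 log2 units of ERF.A2 between root and flower, so its highest organ would become flower. Upper-quartile scaling (1.10 and -0.51) would do the same. It lowers breaker fruit by only 0.16, so ERF.B1, 0.29 log2 units apart, would become highest in fruit. Over the 12519 genes compared, root was the highest organ for 20.4%, fruit for 45.6%, stem for 13.9%, flower for 10.3% and leaf for 9.77%. By the 4-fold rule 2 of the 10 were predominant in a single organ, both in fruit, against 6.57% of all genes for fruit, 4.5% for root and 20.5% for any organ. They were ERF.E1, 9.97-fold above leaf (5.28 to 20.8), and ERF.E4, 4.18-fold above stem (2.91 to 6.10). ERF.E4 passed by a narrow margin, a difference of 2.03 log2 units, and was not counted with median-ratio size factors, with equal RPKM sums or with a pseudocount of 20. At 1 log2 unit 6 were predominant, ERF.A2, ERF.B3 and ERF.F5 in root and ERF.E1, ERF.E2 and ERF.E4 in fruit, against 8.34% of all genes for root, 17.7% for fruit and 41.9% for any organ. For ERF.B3 root was 2.44-fold above leaf on 13 and 6 reads, and its interval of 0.865 to 7.82 holds 1.

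Fruit of MoneyMaker was sampled at 3 stages, which allows the ERF genes to be followed through ripening. Between mature green and breaker fruit 3 of the 7 ERF genes compared were higher by the 4-fold rule and 0 lower, against 8.51% higher and 11.5% lower over the 8098 genes compared. The 3 were ERF.B1, ERF.F4 and ERF.F5. All 7 differences were above 0, while most of the genes compared lay below 0. The median was 1.69 log2 units for the 7, against -0.26 over all genes compared. ERF.B1 reached 25 RPKM at breaker only, and so was compared through the library where it was high. At 1 log2 unit ERF.E2 joined them, which made 4 of 7 against 18.3% higher and 26.6% lower over all genes. Median-ratio size factors scale breaker against mature green fruit by 0.25 log2 units, and the differences of the 10 ERF genes moved by 0.09 to 0.24. ERF.A2, ERF.A3 and ERF.B3 were below 25 RPKM in both libraries. Their differences were -0.57, 0.91 and -0.96 log2 units, on 0 to 3 reads per library.

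ERF.B1 showed the widest gap at this step. It went from 21.0 RPKM to 878 RPKM, 41.8-fold (20.8 to 98.2), a difference of 5.09 log2 units. ERF.F4 went from 38.3 to 447 RPKM, 11.7-fold (5.79 to 26.7). ERF.F5 was higher by 4.57-fold (2.80 to 7.70). With a pseudocount of 20 its difference was 1.99, just short of the rule. These 3 genes were also the 3 most abundant members in root.

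ERF.E2 stood 3.27-fold above mature green fruit at breaker (2.66 to 4.03). ERF.E3 was 1.66-fold higher (1.02 to 2.71). The 2 other subclass E genes were closer, with 1.32-fold for ERF.E4 (0.955 to 1.83) and 1.41-fold for ERF.E1 (0.639 to 3.09), intervals that hold 1.

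Between breaker and ripe fruit a different pair passed. ERF.E1 was 4.42-fold higher in ripe fruit (2.48 to 8.46) and ERF.A3 5.55-fold higher (1.66 to 29.1), the latter from 3 reads to 21. These were 2 of the 8 genes compared, with 0 lower, against 7.07% higher and 8.53% lower over all 7255 genes. ERF.A3 was below 25 RPKM at breaker, and so was compared through the library where it was high. At 1 log2 unit the same pair was counted, against 21.1% higher and 20.4% lower. The ERF median was 0.29 log2 units against 0.10 over all genes. ERF.E1 fell just under the rule with median-ratio size factors (1.96 log2 units), with equal RPKM sums (1.93) and with a pseudocount of 20 (1.91).

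The genes that led at the first step were level or lower at the second. ERF.B1 was 1.49-fold lower in ripe than in breaker fruit (1.21 to 1.83). ERF.F4 was at 447 and 453 RPKM, a ratio of 1.01 (0.724 to 1.42), and ERF.E2 at 1178 and 1169.7 RPKM, a ratio of 0.993 (0.847 to 1.16). ERF.F5 was 1.39-fold lower, with an interval of 0.961 to 2.01 that holds 1. ERF.E3 and ERF.E4 were 1.65-fold (1.10 to 2.51) and 1.48-fold (1.10 to 2.00) higher in ripe fruit. Both steps use the same breaker library, so its counting error enters them with opposite sign.

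**Figure D3:**
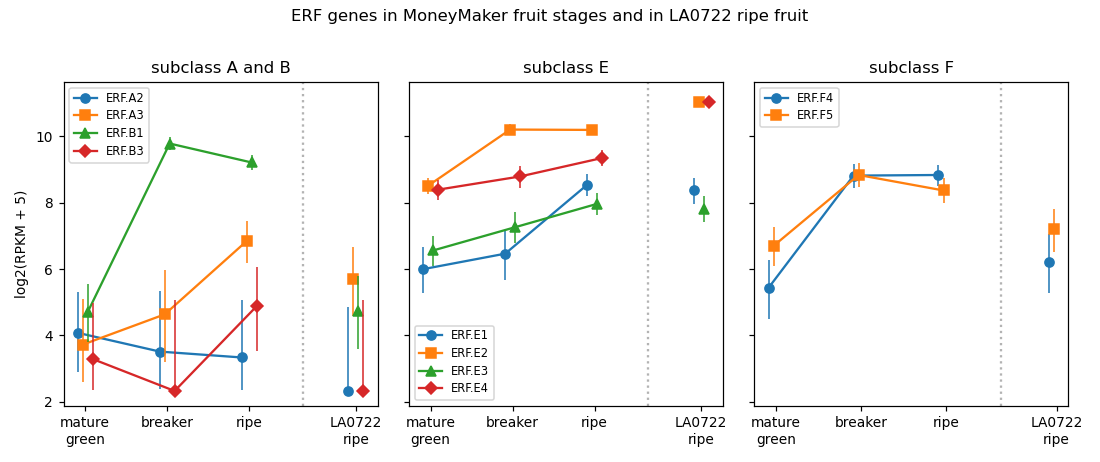
Level of each ERF gene as log2(RPKM + 5) at the 3 MoneyMaker fruit stages, joined by lines, and in LA0722 ripe fruit, to the right of the dotted line; vertical lines are exact 95% intervals for counting error. ERF.B1, ERF.F4 and ERF.F5 step up between mature green and breaker, ERF.E1 and ERF.A3 between breaker and ripe, and ERF.B1 in LA0722 ripe fruit lies at its mature green level.

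Over the whole span from mature green to ripe fruit 4 of 8 genes were higher by the 4-fold rule, 0 lower, against 8.51% higher and 15.2% lower over 8097 genes. They were ERF.B1 at 28.1-fold (13.9 to 66.0), ERF.A3 at 13.5-fold (3.29 to 118) on 2 and 21 reads, ERF.F4 at 11.8-fold (5.94 to 26.8) and ERF.E1 at 6.25-fold (3.62 to 11.5). At 1 log2 unit 7 of 8 were higher, against 20.8% higher and 28.2% lower, and the eighth, ERF.E4, stood at 1.95-fold (1.48 to 2.59). The median was 2.12 log2 units, against -0.12 over all genes. Since the genes compared had to reach 25 RPKM in either library, the scarce ERF.A2 and ERF.B3 do not enter this count. ERF.A3 and ERF.B1 entered it through their ripe fruit level only.

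**Figure D4:**
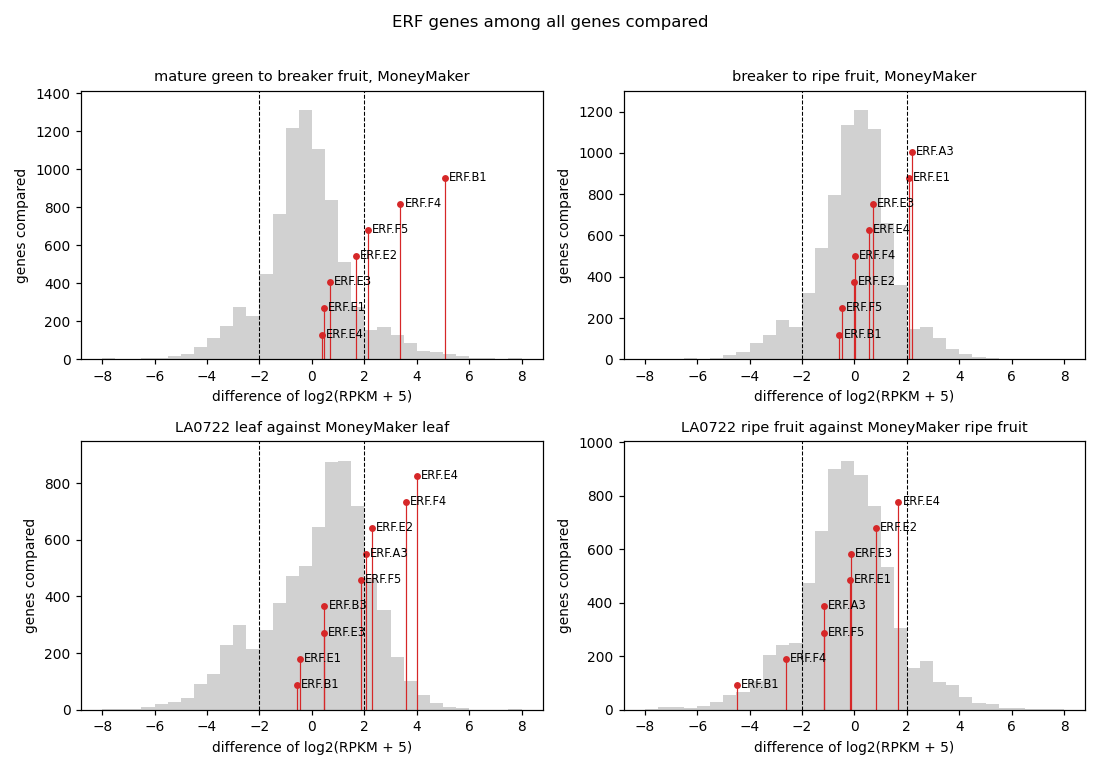
Difference of log2(RPKM + 5) for all genes compared (grey histogram, number of genes per 0.5 log2 units, values beyond 8 placed in the last bin) with the compared ERF genes as red pins, whose heights only separate the labels; dashed lines mark the 4-fold rule. In the step from mature green to breaker fruit all 7 ERF genes lie above 0, and in ripe fruit of LA0722 against MoneyMaker ERF.B1 lies at -4.48.

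Leaf of LA0722 was compared with leaf of MoneyMaker. ERF.E4, ERF.F4, ERF.E2 and ERF.A3 were higher in LA0722 by the 4-fold rule, 4 of 9 genes compared with 0 lower, against 17.1% higher and 15.2% lower over 7015 genes. ERF.E4 and ERF.A3 reached 25 RPKM in the LA0722 leaf only, and so were compared through the library where they were high. ERF.E4 went from 13.8 RPKM (4 reads) to 299.8 RPKM (69 reads), 21.8-fold (8.14 to 82.3). ERF.F4 was 13.5-fold higher (6.81 to 30.4), ERF.E2 5.17-fold (3.51 to 7.81) and ERF.A3 6.32-fold (1.35 to 59.3). ERF.F5 was 4.07-fold higher (1.88 to 9.78), under the rule after the pseudocount.

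The whole of the leaf comparison leaned toward LA0722. The median was 1.88 log2 units for the ERF genes but also 0.60 over all genes compared, and at 1 log2 unit 5 of 9 ERF genes were higher and 0 lower, against 39.8% and 24.5% of all genes. Median-ratio size factors scale LA0722 leaf against that of MoneyMaker by -0.71 log2 units, and the differences of the 10 ERF genes moved by -0.69 to -0.47. Under them ERF.E4 and ERF.F4 stayed past the rule, and ERF.E2 and ERF.A3 were at 1.62 and 1.58. ERF.B1, ERF.B3, ERF.E1 and ERF.E3 differed by 0.57 log2 units or less in either direction, with intervals that hold a ratio of 1.

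Ripe fruit of both species was set side by side next. ERF.B1 was at 589 RPKM in MoneyMaker (175 reads) and 21.6 RPKM in LA0722 (5 reads), 27.3-fold lower in LA0722 (11.5 to 85.2). ERF.F4 was 6.48-fold lower (3.35 to 14.0), at 69.8 against 453 RPKM. These were 2 of 8 genes compared, with 0 higher, against 14.1% lower and 9.09% higher over 7088 genes. ERF.B1 was compared through its MoneyMaker level only, being below 25 RPKM in LA0722. The ERF median was -0.66 log2 units and that of all genes -0.22.

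At 1 log2 unit 4 of 8 were lower in LA0722 ripe fruit, against 30.2%, and 1 was higher, against 20.9%. The further lower genes were ERF.F5, 2.30-fold (1.37 to 4.04), and ERF.A3, 2.34-fold, whose interval of 0.959 to 6.52 holds 1. The higher gene was ERF.E4, 3.23-fold (2.64 to 3.98), from 648 to 2092 RPKM. ERF.E2 was 1.78-fold higher (1.55 to 2.05). ERF.E1 and ERF.E3 were at ratios of 0.887 (0.615 to 1.27) and 0.898 (0.622 to 1.29). ERF.B1 and both subclass F genes were thus lower in the wild ripe fruit beyond counting error, and the 2 abundant genes of subclass E higher. Median-ratio size factors scale the LA0722 library up by 0.29 log2 units here, and the differences of the 10 ERF genes moved by 0.18 to 0.32.

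LA0722 ripe fruit was also set beside the earlier MoneyMaker stages. Its level of ERF.B1, 21.6 RPKM, was close to the 21.0 RPKM of MoneyMaker mature green fruit and 40.7-fold below breaker fruit (17.2 to 127). For ERF.E1 the opposite held, with 327 RPKM in LA0722 ripe, 368 RPKM in MoneyMaker ripe and 58.9 RPKM in mature green fruit. No breaker or mature green library of LA0722 was analysed here.

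Within each species, ripe fruit and leaf gave another view of the same libraries. In MoneyMaker 7 of 9 ERF genes were higher in ripe fruit by the 4-fold rule and 0 lower, against 26.4% higher and 18.6% lower over 7616 genes. Of the 7, ERF.A3 and ERF.E4 were below 25 RPKM in leaf, and so were compared through their ripe fruit level only. ERF.E4 led with 47.1-fold (18.0 to 175), followed by ERF.B1 with 15.4-fold (9.21 to 27.5) and ERF.E2 with 15.1-fold (10.5 to 22.3). The median was 3.21 log2 units against 0.98 over all genes. At 1 log2 unit the same 7 were counted, against 49.5% higher and 25% lower, and with median-ratio size factors the differences of the 10 ERF genes moved by -0.97 to -0.57 and the count was still 7.

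In LA0722 the members split. ERF.E1 was 12.8-fold higher in ripe fruit than in leaf (5.52 to 36.5), ERF.E4 6.98-fold (5.37 to 9.18) and ERF.E2 5.20-fold (4.29 to 6.34), 3 of 8 against 19.3% over 7551 genes. ERF.F4 was 6.74-fold lower in ripe fruit (3.51 to 14.5). ERF.B3 had 7 reads in leaf and 0 in fruit, and was compared through its leaf level only. Against an assumed 3 reads in fruit it would be 1.64-fold lower, a ratio that leaves out counting error on the 7 reads. ERF.F4 and ERF.B3 were 2 of 8 lower against 19.4%. ERF.B3 was not counted with a pseudocount of 20, where its difference was -1.55, or at a minimum level of 100 RPKM, which left 1 lower gene. The counts were the same at 1 log2 unit, against 32% higher and 32.2% lower. ERF.F5 and ERF.A3 were level, at ratios of 0.983 (0.527 to 1.80) and 0.997 (0.322 to 2.90), where MoneyMaker had 9.22-fold (4.54 to 21.1) and 14.8-fold (3.61 to 129.9) more in ripe fruit.

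**Figure D5:**
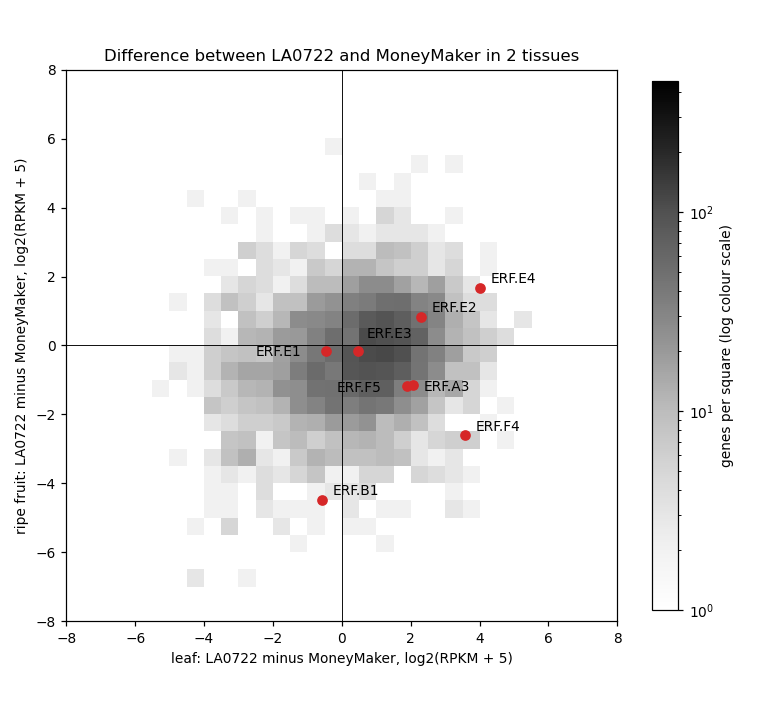
Difference of log2(RPKM + 5) between LA0722 and MoneyMaker in leaf (horizontal) and in ripe fruit (vertical) for the 8 ERF genes compared in both tissues (red, named), over all 4593 genes compared in both (grey squares, darker for more genes on a log colour scale). ERF.F4, ERF.A3 and ERF.F5 lie to the right and below 0, ERF.E4 and ERF.E2 to the right and above 0, and ERF.B1 far below 0.

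Across the 9 libraries members of the same subclass were not uniformly alike. Pearson's r of log2(RPKM + 5), given as a description over 9 libraries that differ in depth, had a median of 0.42 over the 45 pairs of members and ran from -0.78 to 0.92. It was 0.92 for ERF.E2 with ERF.E4, 0.81 for ERF.F4 with ERF.F5 and 0.80 for ERF.E1 with ERF.E4. The lowest value was that of ERF.A2, highest in root, with ERF.E1, highest in ripe fruit. It was 0.04 within subclass A and 0.35 within subclass B. ERF.B1 and ERF.F4 had 0.98 over the 7 MoneyMaker libraries and 0.76 once the 2 LA0722 libraries were included, where ERF.F4 was high in leaf and ERF.B1 was not.

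Outside the group, the gene most like each of the 3 members with the most reads was looked up among 13290 genes that reached 25 RPKM. For ERF.B1 it was Solyc02g091180, with r = 0.987 over 9 libraries. That ID stood at 136 RPKM in root, 41.5 RPKM in stem, 102 RPKM in breaker and 88.6 RPKM in ripe MoneyMaker fruit and was listed at 0 in the 5 other libraries, the same 5 in which ERF.B1 was lowest. For ERF.E4 it was Solyc10g051300 (r = 0.984), at 100.7 RPKM in LA0722 ripe fruit and 16.6 RPKM in flower at its extremes. For ERF.E2 it was Solyc06g053340 (r = 0.977), at 49.8 RPKM in LA0722 ripe fruit and 3.95 RPKM in MoneyMaker leaf. These were the most similar of many, 14, 15 and 13 genes respectively reaching an r of 0.95.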

How the data were processed

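The deposited table holds RPKM values that the authors computed, with 2 decimals, for 34727 gene IDs in 9 columns, 1 library each. Per the labels' protocols, PCR-amplified cDNA was read by 454 Titanium sequencing, aiming at 350000 reads per library. HTSeq is among the tools in the submitters' processing notes. For its version, and for the annotation, build, read aligner and handling of reads that similar genes share, the sources used here give nothing. Other ERF and ethylene pathway genes were not analysed here, because RefSeq's table of 41476 genes held 0 of the table's IDs so that only the 10 members, whose names came with their IDs, could be matched.

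Reads were recovered as the smallest whole numbers that give every RPKM of a gene, for a gene length divisible by 3, an inferred property. All 23089 genes above 0 had a solution within 0.05 of whole reads, which the method requires, and the reads summed to between 95.4% and 99.9% of the implied totals, a sum that was not used in finding those totals. Taking the smallest solution can understate the reads of genes seen in few libraries. The recovered coding lengths of the ERF genes, 606 to 1161 nt, were below the RefSeq gene span for 10 of 10. A doubled length would exceed the span for 6 of 10. For ERF.E2, ERF.E3, ERF.E4 and ERF.F5 it would not, so the span does not exclude doubled lengths and reads there. The recovery and the rule of size were tried on simulated data, where 99.8% of read numbers were recovered exactly. Those data were built from the recovered lengths and totals, so this share cannot show that the lengths and totals are right. Of 200 genes changed 8-fold between mature green and breaker fruit, 187 were called in their direction. So were 4.97% of the other genes compared, in either direction. The shares called were not tested separately at low read numbers, such as the 8 reads of ERF.B1 and 9 of ERF.F4 in mature green fruit. Variation between plants and from PCR was not tested. Intervals are exact Poisson intervals for a level and exact conditional binomial intervals for a ratio of reads. PCR copies are not independent molecules, so both cover counting error only. Named genes are all 10 members, the IDs on either side of the chromosome 5 run and the most similar ID for the 3 members with the most reads. The members, lists and comparisons were chosen with earlier results of these data known. Other pseudocounts (1 and 20), levels (none and 100 RPKM), a size of 1 log2 unit and 3 scalings were tried. Python 3.11.15, numpy 2.4.6, pandas 2.3.3, scipy 1.17.1 and matplotlib 3.10.9 were used.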

Additional observations from a re-analysis of the deposited data

Results flagged for a closer look

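Of the 8 ERF genes compared in both tissues, 3 differed between LA0722 and MoneyMaker in opposite directions in leaf and in ripe fruit by at least 1 log2 unit in each. Over all 4593 genes compared in both tissues the share was 11.6%. With 1 library per group the opposition was not tested.

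ERF.F4 was 3.58 log2 units higher in leaf of LA0722 than of MoneyMaker, and its difference in ripe fruit was -2.61. ERF.F5, the other repressor gene of subclass F, stood at 1.88 in leaf and -1.18 in ripe fruit. ERF.A3 stood at 2.07 in leaf and -1.15 in ripe fruit, on 2 to 21 reads per library, and the interval of its fruit ratio holds 1. In leaf it was compared through its LA0722 level only. The signs of these 6 differences could not turn under either other pseudocount or any of the 3 other scalings. A pseudocount keeps the sign, and the widest scaling shift was -0.71 log2 units in leaf and 0.29 in ripe fruit. The fruit difference was smaller than 1 unit for ERF.A3 under 4 of these 5 settings, at -0.98 to -0.86, and for ERF.F5 it was -0.89 with median-ratio size factors and -0.98 with equal RPKM sums.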

How the results depend on the processing

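No paired analysis was possible because each group holds 1 library and the labels give no replicate numbers, and for the same reason no library could be left out. The counts of ERF genes past the rule stayed within 1.5 times of those reported under most settings. From breaker to ripe fruit the count of 2 became 0 with a pseudocount of 20 and 1 with median-ratio size factors or equal RPKM sums. From mature green to ripe fruit the count of 4 became 7 at 1 log2 unit. For LA0722 against MoneyMaker it went from 4 to 2 in leaf with median-ratio size factors and from 2 to 5 in ripe fruit at 1 log2 unit. The 2 organ-predominant genes became 1 with a pseudocount of 20, median-ratio size factors or equal RPKM sums, and 6 at 1 log2 unit. The cause was not tested. Over 350 recomputed differences of single members, 13 changed sign, all of 0.76 log2 units or less. Differences past the rule could not change sign, because a pseudocount keeps the sign and every scaling shift was smaller than the rule. Their unchanged signs are therefore no check on the processing. Depth limits ERF.A2, ERF.A3 and ERF.B3, with 53, 74 and 35 reads over the 9 libraries.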
